A study of Rattus norvegicus with 28 samples.

Results

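A set of 7 genes that mark lymphatic endothelium was followed through rat heart grafts: Lyve1, Pdpn, Prox1, Flt4, Ccl21, Mmrn1 and Reln. They were chosen by name, all 7 had a probe set on the array, and they are 7 of the 14217 genes measured. The probe sets used were 1382192_at (Lyve1), 1386913_at (Pdpn), 1376672_at (Prox1), 1369216_a_at (Flt4), 1378015_at (Ccl21), 1392053_at (Mmrn1) and 1373957_at (Reln), each the brightest of its gene in endothelium. RNA came from endothelium-enriched cells of male rat hearts, on 24 Affymetrix arrays in 8 groups of 3. Allografts were DA hearts placed in Lewis rats and taken on days 2, 3 and 4, set against normal DA hearts that had not been transplanted. Isografts were Lewis hearts placed in Lewis rats and taken on the same days, set against normal Lewis hearts. Another 4 arrays held leukocytes taken out of allografts, 1 from day 2, 2 from day 3 and 1 from day 4. All grafts sat in the recipient's neck, joined to its vessels by a cuff technique, and no drug or gene change is named for any group. Cells bearing the leukocyte antigen CD45 were removed on beads before cells bearing CD31 were collected.

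The lymphatic vessels of the heart drain fluid and carry leukocytes towards lymph nodes. Their endothelium keeps its identity through the transcription factor PROX1, grows in response to VEGF-C through the receptor VEGFR-3, and draws dendritic cells and T cells in with the chemokine CCL21. CD31 is present on blood and lymphatic endothelium alike, so the collected cells can hold both. Several of these genes are not made by lymphatic endothelium alone. LYVE1, a receptor for hyaluronan, is also made by resident macrophages of the heart, and podoplanin, the membrane mucin encoded by Pdpn, by activated fibroblasts, by mesothelium and by inflammatory macrophages. Prox1 and Flt4 (VEGFR-3) form the regulator and receptor side, Ccl21 and Reln (the secreted glycoprotein reelin) are released proteins, and Mmrn1 encodes multimerin 1, which platelets also store.

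The values are log2 signals per probe set, so 1 unit is a doubling. Blood and pan-endothelial markers (Pecam1, Kdr, Tie1 and others, 10 of 12 measured) averaged 8.69 to 10.5 in leukocytes, 11.8 to 12.2 on graft arrays and 11.9 to 12.3 on normal arrays. Macrophage markers (13 of 15 measured) averaged 12.3 to 12.7 in leukocytes, 7.04 to 9.70 on graft arrays and 5.72 to 6.16 on normal arrays. Pan-leukocyte markers (8 measured) averaged 12.3 to 12.5 in leukocytes, 7.48 to 9.51 on graft arrays and 6.38 to 6.92 on normal arrays. Cardiomyocyte markers (7 measured) averaged 6.11 to 8.20 in leukocytes, 5.46 to 7.12 on graft arrays and 6.27 to 9.01 on normal arrays. The part of these other cells in the results was not tested. In bulk RNA, fewer cells of a type and less RNA per cell cannot be told apart. Arrays of a group are described as biological replicates, but nothing says whether each came from 1 animal, so p-values cover no more than the spread between these samples. Differences were tested with limma over all genes, and a gene is said to have risen or fallen where the p-value, adjusted after Benjamini and Hochberg over 14217 genes, was under 0.05.

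The promoters of 4 members are shown because Lyve1 and Pdpn were the members that passed in most comparisons, and Ccl21 and Mmrn1 were among the members whose leukocyte arrays all lay below the allograft endothelium. Each covers 250 bases before to 50 bases after the gene's start, 5′ to 3′ on the gene's strand, from RefSeq on the rat build GRCr8. Capitals mark matches to a searched motif. The windows are chr1:174410928-174411227 (minus strand) for Lyve1, chr5:160918910-160919209 (minus) for Pdpn, chr5:61777466-61777765 (minus) for Ccl21 and chr4:91233166-91233465 (plus) for Mmrn1.
Lyve1: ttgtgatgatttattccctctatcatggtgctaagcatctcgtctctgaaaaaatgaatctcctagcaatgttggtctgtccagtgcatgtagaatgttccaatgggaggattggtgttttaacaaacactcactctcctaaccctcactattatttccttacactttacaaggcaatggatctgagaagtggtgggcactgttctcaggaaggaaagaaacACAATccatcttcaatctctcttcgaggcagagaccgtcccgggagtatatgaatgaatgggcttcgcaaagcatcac
Pdpn: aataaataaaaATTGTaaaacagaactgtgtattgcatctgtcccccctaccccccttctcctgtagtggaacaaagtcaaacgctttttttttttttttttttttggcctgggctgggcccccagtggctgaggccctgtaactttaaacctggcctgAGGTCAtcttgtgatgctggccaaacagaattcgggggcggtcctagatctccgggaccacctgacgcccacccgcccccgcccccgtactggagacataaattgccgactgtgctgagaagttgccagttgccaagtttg
Ccl21: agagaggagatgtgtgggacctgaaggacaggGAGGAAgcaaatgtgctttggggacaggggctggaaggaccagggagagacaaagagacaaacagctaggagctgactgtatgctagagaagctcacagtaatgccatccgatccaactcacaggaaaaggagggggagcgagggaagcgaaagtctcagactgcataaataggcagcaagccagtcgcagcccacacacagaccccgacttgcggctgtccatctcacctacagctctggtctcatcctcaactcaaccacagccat
Mmrn1: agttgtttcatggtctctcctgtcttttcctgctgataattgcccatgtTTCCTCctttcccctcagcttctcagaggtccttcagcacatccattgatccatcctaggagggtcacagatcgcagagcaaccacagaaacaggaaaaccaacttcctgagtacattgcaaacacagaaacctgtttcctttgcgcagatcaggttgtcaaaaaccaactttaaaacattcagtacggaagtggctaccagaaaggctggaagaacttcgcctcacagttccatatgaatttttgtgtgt
Promoters of 6 of the 7 members were matched; the one of Prox1 is not shown here. The motifs searched on both strands were the letters TGANTCA for AP-1, the letters ACAAT for SOX factors, the letters AGATAA for GATA factors and the letters GAGGAA for PU.1. The letters CCGGAA stood for ETS factors, the letters TATAAA for the TATA box and the letters TGACCT for COUP-TF, and no 2 of these overlapped. Lyve1 held a SOX match at -28 from the start, and Pdpn a SOX match at -239 and a COUP-TF match at -91, both on the opposite strand. Ccl21 held a PU.1 match at -218 and Mmrn1 one at -201. Flt4 and Reln held none of the searched letters. Of 33469 rat promoters of this length, 33.7% held the SOX letters, 27.6% PU.1, 16.2% COUP-TF, 15.0% ETS, 14.2% TATA, 11.6% GATA and 7.33% AP-1, so the matches are of frequent words and say nothing of binding. G and C made up 43.3% of the Lyve1 window and 79.0% of that of Reln, against a median of 51.7% over all promoters.

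Pdpn was higher than normal on every graft array. In allografts its log2 signal was 9.82, 10.05 and 10.92 on day 2, 8.69, 9.21 and 9.14 on day 3, and 9.81, 10.64 and 9.27 on day 4, against 7.09, 6.92 and 7.77 in normal DA hearts. In isografts it was 10.10, 9.32 and 9.22 on day 2, 9.24, 9.90 and 9.31 on day 3, and 9.17, 8.79 and 10.16 on day 4, against 6.36, 5.72 and 7.83 in normal Lewis hearts. The lowest of the 18 graft arrays, 8.69, lay above the highest of the 6 normal arrays, 7.83, so the groups did not overlap in either strain.

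The log2 difference of Pdpn in allografts was 3.00, 1.76 and 2.65 on days 2, 3 and 4 (SE 0.46, limma adjusted p = 0.000388, 0.0498 and 0.00071). These are 8.02-, 3.38- and 6.26-fold differences. In isografts it was 2.91, 2.85 and 2.74 (SE 0.46, limma adjusted p = 0.0014, 0.00135 and 0.00134), or 7.54-, 7.20- and 6.67-fold. The day 3 call in allografts lay at the threshold and was lost when any 1 of its 6 arrays was left out (adjusted p = 0.0602 to 0.228). All the other calls of Pdpn held without each array in turn.

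Lyve1 was the other membrane glycoprotein gene that rose. Its signal in allografts was 10.12, 10.18 and 12.11 on day 2, 9.56, 9.71 and 10.08 on day 3, and 10.22, 11.58 and 9.42 on day 4, against 8.70, 8.58 and 9.46 in normal DA hearts. Isograft arrays had 10.85, 10.60 and 10.26 on day 2, 10.50, 11.13 and 10.37 on day 3, and 10.18, 10.01 and 11.58 on day 4, against 7.96, 7.51 and 9.14 in normal Lewis hearts. Replicate 3 of the day 4 allografts lay just under the highest DA array, whereas isograft and Lewis arrays did not overlap.

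The log2 difference of Lyve1 in allografts was 1.89, 0.87 and 1.49 on days 2, 3 and 4 (SE 0.55, limma adjusted p = 0.0465, 0.699 and 0.0892), so only day 2 passed, at 3.70-fold. In isografts it was 2.37, 2.46 and 2.39 (SE 0.55, limma adjusted p = 0.0310, 0.0172 and 0.0170), which is 5.16-, 5.52- and 5.24-fold. Each of these 4 calls was lost without some single arrays. The isograft differences without single arrays stayed at 2.02 to 2.84 on day 2, 2.12 to 2.93 on day 3 and 1.89 to 2.86 on day 4. The allograft call of day 2 was lost without replicate 3 of that group, where the difference was 1.23 (adjusted p = 0.231), and also without any 1 of the DA arrays (adjusted p = 0.0609 to 0.172). On day 4 Lyve1 passed in allografts without replicate 3 (adjusted p = 0.0465). The isograft calls were lost without Lewis replicate 1 or 2 (adjusted p = 0.0676 to 0.175 over the 3 days). Each was lost too without some of its own arrays, which were any 1 of the 3 on day 2, replicate 2 on day 3 and replicate 3 on day 4 (adjusted p = 0.0636 to 0.131).

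Prox1, the transcription factor of lymphatic identity, did not pass in any group. Its signal in allografts was 6.79, 6.58 and 8.36 on day 2, 7.22, 7.16 and 6.63 on day 3, and 7.10, 8.75 and 6.77 on day 4, against 7.11, 6.72 and 7.27 in normal DA hearts. In isografts Prox1 was 7.66, 7.12 and 7.50 on day 2, 7.38, 7.78 and 7.64 on day 3, and 7.41, 7.33 and 7.98 on day 4, against 6.32, 5.93 and 7.24 in normal Lewis hearts. Most allograft arrays lay inside the DA range or below it, and Lewis replicate 3 lay inside the isograft range. The log2 difference was 0.21, -0.03 and 0.51 in allografts (SE 0.45, limma adjusted p = 0.855, 0.996 and 0.580) and 0.93, 1.10 and 1.08 in isografts (adjusted p = 0.503, 0.283 and 0.267). A second Prox1 probe set lay between 5.32 and 5.69 in leukocytes and between 5.05 and 5.81 on the 24 endothelial arrays, so it showed none of this spread.

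Flt4, the receptor for VEGF-C, lay between 6.25 and 7.69 on the 18 graft arrays and between 6.41 and 6.82 on the 6 normal arrays. Its log2 differences were 0.36, -0.12 and 0.32 in allografts on days 2, 3 and 4 (SE 0.22, limma adjusted p = 0.412, 0.968 and 0.422). In isografts they were the smallest of the 7 members by size, at -0.09, 0.12 and -0.03 (adjusted p = 0.965, 0.933 and 0.971). The 95% intervals of these 6 differences ran from -0.58 at the lowest to 0.82 at the highest, so a doubling of this probe set's signal lay outside each of them.

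The secreted chemokine Ccl21 had a signal in allografts of 10.05, 10.67 and 12.42 on day 2, 10.10, 10.04 and 10.27 on day 3, and 9.80, 12.89 and 9.68 on day 4, against 9.91, 9.83 and 10.73 in normal DA hearts. Isograft arrays had 11.58, 10.95 and 10.67 on day 2, 11.00, 10.31 and 10.30 on day 3, and 10.61, 9.89 and 11.32 on day 4, against 9.34, 8.41 and 10.50 in normal Lewis hearts. A single allograft array held the peak on day 2 and another on day 4, the other allograft arrays lay near the DA range, and isograft and Lewis arrays overlapped through Lewis replicate 3. The log2 difference was 0.89, -0.02 and 0.63 in allografts (SE 0.69, limma adjusted p = 0.554, 0.999 and 0.680) and 1.65, 1.12 and 1.19 in isografts (adjusted p = 0.388, 0.596 and 0.463).

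Reelin and multimerin 1 showed the same lone peaks. Reln was 8.41, 8.81 and 10.73 on day 2, 8.28, 8.26 and 8.34 on day 3, and 8.61, 9.82 and 7.79 on day 4 in allografts, against 7.82, 7.69 and 8.54 in normal DA hearts. In isografts Reln was 9.70, 9.10 and 8.68 on day 2, 8.66, 9.21 and 9.02 on day 3, and 8.58, 8.41 and 9.50 on day 4, against 7.13, 7.14 and 8.81 in normal Lewis hearts. Allograft arrays overlapped the DA range on days 2, 3 and 4, and isograft arrays reached below the highest Lewis array. The log2 difference of Reln was 1.30, 0.28 and 0.72 in allografts (SE 0.55, limma adjusted p = 0.188, 0.974 and 0.491) and 1.47, 1.27 and 1.14 in isografts (adjusted p = 0.285, 0.327 and 0.357).

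Mmrn1 was 8.12, 8.52 and 11.07 on day 2, 7.96, 8.31 and 8.29 on day 3, and 8.24, 10.62 and 7.70 on day 4 in allografts, against 8.47, 8.58 and 9.54 in normal DA hearts. Isograft arrays had 9.51, 9.41 and 8.72 on day 2, 9.20, 9.58 and 9.24 on day 3, and 9.15, 8.93 and 10.15 on day 4, against 8.09, 7.01 and 9.58 in normal Lewis hearts. All 3 day 3 allograft arrays lay below the lowest DA array, and of the other allograft arrays only replicate 3 of day 2 and replicate 2 of day 4 lay above the highest, while isograft arrays overlapped Lewis replicate 3. The log2 difference was 0.38, -0.68 and -0.01 in allografts (SE 0.72, limma adjusted p = 0.841, 0.906 and 0.997) and 0.98, 1.11 and 1.18 in isografts (adjusted p = 0.757, 0.619 and 0.487). Platelet markers, which could bring Mmrn1 with them, averaged 6.45 to 6.94 on graft arrays and 6.23 to 6.57 on normal arrays, and their part in these values was not tested.

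**Figure D1:**
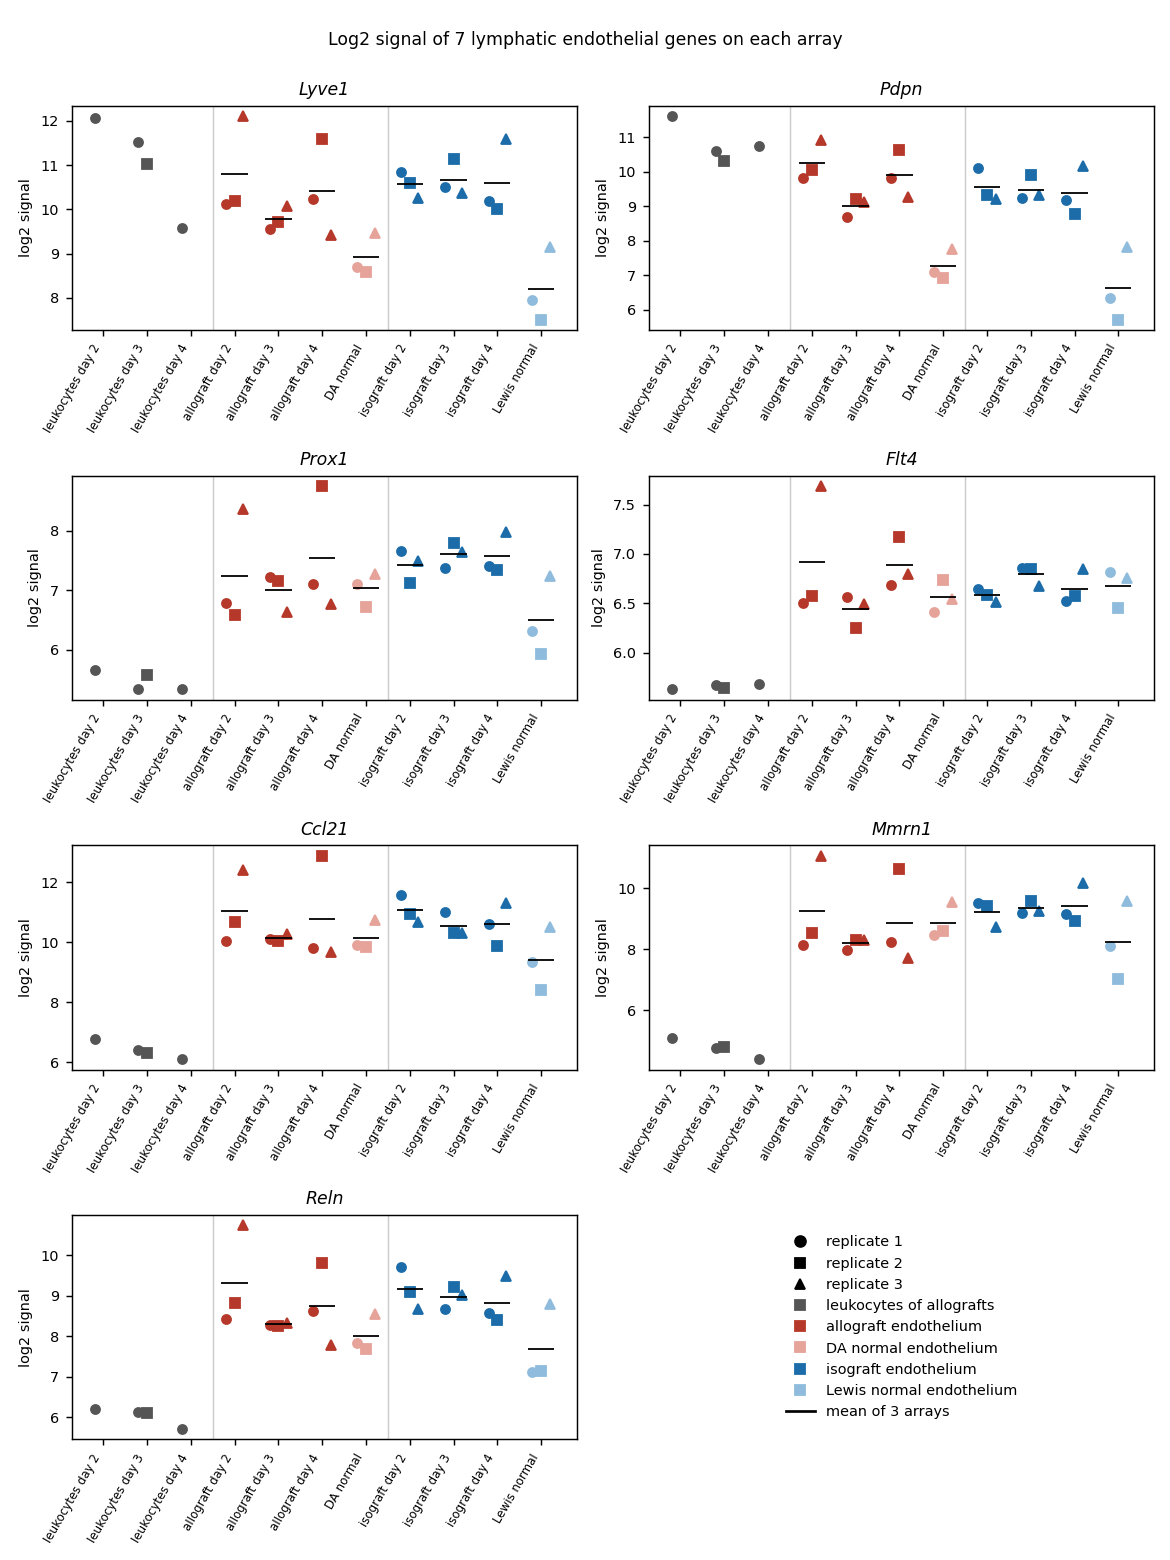
Log2 signal of each of the 7 genes (vertical axis, own range per panel) on every array, by group. Points are arrays, the symbol gives the replicate and lines are means of 3 arrays. Pdpn on 18 graft arrays lies above all 6 normal arrays, and replicate 3 of the day 2 allografts and replicate 2 of the day 4 allografts stand above their groups in all 7 panels. Leukocyte arrays may have been normalized apart.

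Counted together, 2, 1 and 1 of 7 members rose in allografts on days 2, 3 and 4, where 3.53%, 1.55% and 7.19% of all genes rose. On each day of the isografts 2 of 7 rose, where the share of all genes that rose was 1.06% on day 2, 1.8% on day 3 and 2.61% on day 4. None of the 7 fell in limma's test in these 6 comparisons. Of all genes, 2.45%, 0.724% and 4.26% fell in allografts and 0.422%, 0.732% and 0.556% in isografts. The median log2 difference over the members was 0.89, -0.02 and 0.63 in allografts and 1.47, 1.12 and 1.18 in isografts, beside medians over all genes between -0.01 and 0.03. At an unadjusted p under 0.05 the members counted 3, 1 and 2 in allografts and 4, 4 and 3 in isografts. Beside them, 2682, 1532 and 3340 of all 14217 genes had such a p, in either direction, in allografts on days 2, 3 and 4. In isografts 1425, 1734 and 1997 genes had it. Whether the members exceeded these shares was not tested.

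**Figure D2:**
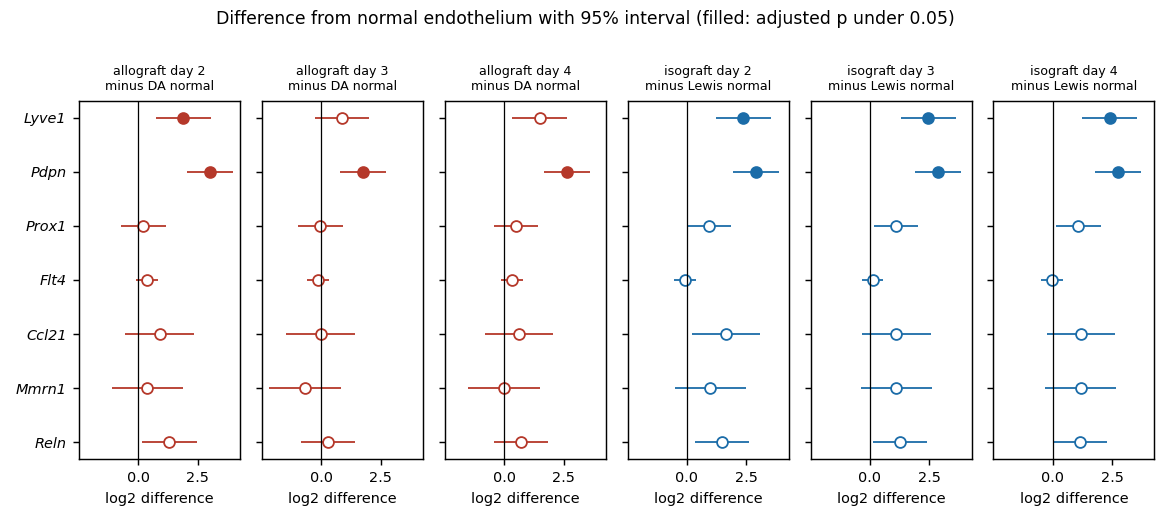
Log2 difference from the normal endothelium of the same strain for each gene, with the 95% interval of limma's fit (horizontal axis), in 3 allograft and 3 isograft comparisons. Filled points passed at an adjusted p under 0.05: Pdpn in all 6 panels and Lyve1 in 4.

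Across all 18 graft arrays against the 6 normal ones, 3 of 7 members rose, where 9.43% of all genes did. Pdpn differed by 2.65 (SE 0.27, limma adjusted p = 6.35e-07), Lyve1 by 1.91 (SE 0.32, adjusted p = 0.000229) and Reln by 1.03 (SE 0.32, adjusted p = 0.0287). Reln lost its call without DA replicate 1 or 2 or Lewis replicate 1 or 2 (adjusted p = 0.0702 to 0.102). Ccl21 (0.91, adjusted p = 0.137), Prox1 (0.63, adjusted p = 0.109), Mmrn1 (0.49, adjusted p = 0.509) and Flt4 (0.09, adjusted p = 0.724) did not pass. Prox1 passed without Lewis replicate 3 (adjusted p = 0.0492).

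The probe set matters for 3 of these genes, in a fit adjusted over all probe sets. A second Lyve1 probe set differed by 1.84, 0.92 and 1.64 in allografts (limma adjusted p = 0.121, 0.816 and 0.137) and by 2.08, 2.28 and 2.25 in isografts (adjusted p = 0.189, 0.0900 and 0.0851), so it passed on no single day. Over all grafts it differed by 1.84 and passed (adjusted p = 0.00223). The second Prox1 probe set differed by -0.068 over all grafts (adjusted p = 0.683), where the brighter one had 0.63. A second Reln probe set differed by 0.75 over all grafts and did not pass (adjusted p = 0.0860). In the same fit the brighter probe set of Lyve1 missed the threshold in day 2 allografts (adjusted p = 0.0531), and that of Pdpn missed it in day 3 allografts (adjusted p = 0.0602).

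Allografts and isografts were then compared in their change from normal. On days 2, 3 and 4, limma called 0 of 7 members, and 0.0%, 0.0% and 0.00703% of all genes (480, 334 and 783 genes had an unadjusted p under 0.05, and 0 members). On day 3 the signed change of all 7 members was lower in allografts, with a lowest unadjusted p of 0.0542. These values share the same normal arrays, on which most members moved together, so they are not 7 separate observations. For the mean of the 3 days 0 members were called, beside 0.00703% of all genes. An unadjusted p under 0.05 was found for 0 members and 578 of all genes. There the change in allografts minus that in isografts was -0.99 for Lyve1 (95% interval -2.32 to 0.34), -0.36 for Pdpn (-1.48 to 0.75) and -1.20 for Mmrn1 (-2.93 to 0.53). Each interval holds 0 and reaches below -1, and none reaches 1.

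Time and strain gave no calls among the members. Day 4 against day 2 had 0 of 7 called by limma in allografts, beside 0.38% of all genes, and 0 of 7 in isografts, beside 0.0352%. At an unadjusted p under 0.05 there were 0 members in either. DA against Lewis normal endothelium also had 0 of 7 called, beside 1.01% of all genes. There 0 members and 1179 of all genes had an unadjusted p under 0.05. DA was the higher strain for 6 of 7 members, by a median of 0.63 over the 7. Cardiomyocyte markers went the other way, and 5 of 7 fell in DA against Lewis, with a median of -1.66. They averaged 6.27, 6.89 and 7.19 on the DA arrays, against 8.06, 9.01 and 7.84 on the Lewis arrays. Lewis replicate 2, with the highest of these, was the lowest of its 3 arrays in 6 of 7 members. The part of these cells in the strain values was not tested.

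Arrays of the same group differed widely in these genes, and the members moved together. In 4 of the 8 groups 1 array was the highest of its 3 in all 7 members: replicate 3 of the day 2 allografts, replicate 2 of the day 4 allografts, replicate 1 of the day 2 isografts and replicate 3 of the day 4 isografts. In normal DA and normal Lewis hearts replicate 3 was highest in 6 of 7. The day 2 allograft array stood above the mean of its 2 partners by 0.99 (Pdpn) to 2.75 (Mmrn1), and the day 4 array by 0.43 (Flt4) to 3.15 (Ccl21). A gap of 1 or more was found in 6 of 7 members on each, beside 3.28% and 1.48% of all genes. In the day 4 array the gap of Ccl21 was the 5th largest of 14217 genes and that of Mmrn1 the 13th. In Lewis replicate 3 the gap of Mmrn1 ranked 3rd, that of Pdpn 5th, that of Reln 8th and that of Ccl21 9th, beside 0.246% of genes with a gap of 1 or more. Allografts of day 3 had no such array. These arrays were picked out after their values were seen, and the ranks are a description.

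Markers of other cells moved with some of these arrays. Fibroblast markers (10 measured) averaged 10.9 on the high array of the day 2 allografts, against 7.97 and 8.47 on its partners, and 11.3 on that of day 4, against 8.31 and 9.91. The high array of the day 4 isografts had 10.0, against 9.61 and 9.21, and Lewis replicate 3 had 7.84, against 7.17 and 7.13. Replicate 1 of the day 3 allografts had 9.79 with no peak in the lymphatic genes, and replicate 1 of the day 2 isografts was the lowest of its 3, at 7.71. Macrophage markers were 9.70, against 8.48 and 8.44, on the high day 2 allograft array, and 9.53, against 9.30 and 9.17, on that of day 4. Mesothelial markers stayed at 5.28 to 5.64 on graft arrays and 5.41 to 5.67 on normal arrays. The part of these cells in the peaks was not tested.

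**Figure D3:**
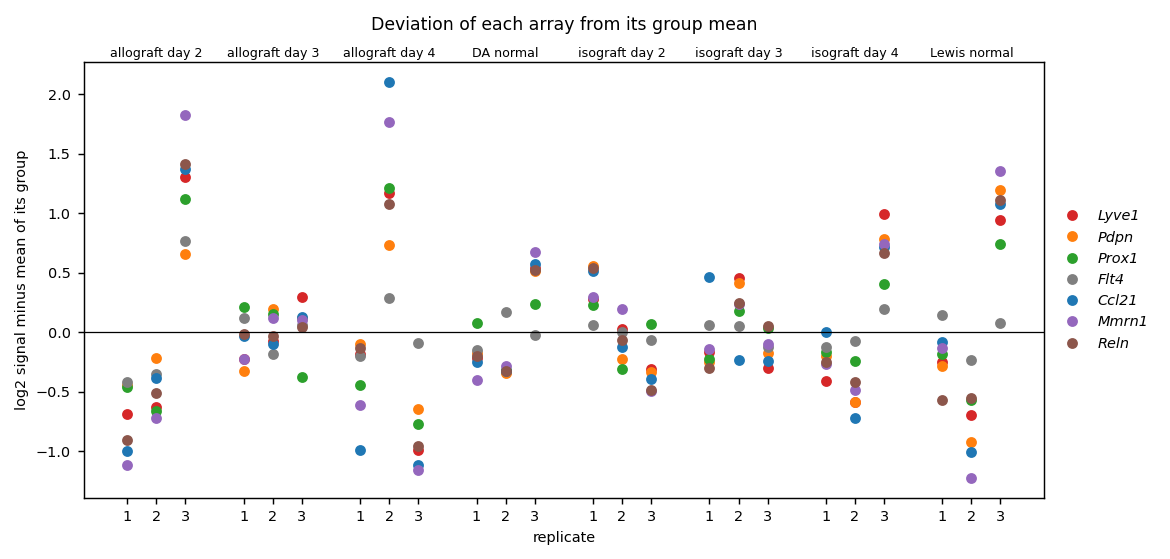
Log2 signal minus the mean of the group (vertical axis) for each gene on each of the 3 arrays of the 8 endothelial groups. In the day 2 allograft, day 4 allograft, day 4 isograft and Lewis normal groups 1 array lies high in nearly all genes, while the day 3 allografts lie within 0.4 of their means.

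Within an array, the change of Pdpn from its strain's normal mean was above that of each of the 5 members other than Lyve1 on all 18 graft arrays. That of Lyve1 was above all 5 on 17 of 18. The exception was replicate 2 of the day 4 allografts, where Lyve1 had changed by 2.67 and Ccl21 by 2.73. The change was then averaged over Prox1, Ccl21, Mmrn1 and Reln, leaving out Flt4 because it was nearly flat, and taken from the change of Pdpn. The remainder lay between 1.38 and 2.73 on the 18 graft arrays and between -0.08 and 0.12 on the normal arrays, whose mean is 0 by construction. For Lyve1 it lay between 0.66 and 1.66 on graft arrays and between -0.13 and 0.14 on normal arrays. The 4-gene average itself was 0.69, -0.11 and 0.46 on the successive days of the allografts, and 1.26, 1.15 and 1.15 on those of the isografts. Both membrane glycoprotein genes stood above this average on the high arrays and the low arrays alike. This split was made after the values were seen and has no test.

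Markers of other cells changed with transplantation too. Of 13 macrophage markers 12, 11 and 13 rose on the successive days of the allografts, and 4, 11 and 12 on those of the isografts, with median differences of 2.25 to 3.08 in allografts and 0.97 to 2.95 in isografts. Of 8 pan-leukocyte markers 7 rose on each day in allografts, and 3, 5 and 5 rose in isografts. Of 10 fibroblast markers 1, 0 and 5 rose in allografts and 0, 0 and 4 in isografts. Their median differences were 0.96, 0.72 and 1.77 in allografts and 0.59, 0.53 and 1.93 in isografts. Of all genes, 3.53%, 1.55% and 7.19% rose on these days in allografts and 1.06%, 1.8% and 2.61% in isografts. Of 7 cardiomyocyte markers 2, 0 and 3 fell in allografts, where 2.45%, 0.724% and 4.26% of all genes fell. In isografts 3, 5 and 4 fell, where 0.422%, 0.732% and 0.556% of all genes did. Over all grafts 6 of 7 fell, with a median of -1.20, where 2320 of 14217 genes were called in either direction. Pdpn passed in all 6 comparisons. In day 2 isografts 4 of 13 macrophage and 0 of 10 fibroblast markers rose beside it, and in day 4 allografts 13 and 5 did. The part of all these cells in the rise of Pdpn and Lyve1 was not tested.

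**Figure D4:**
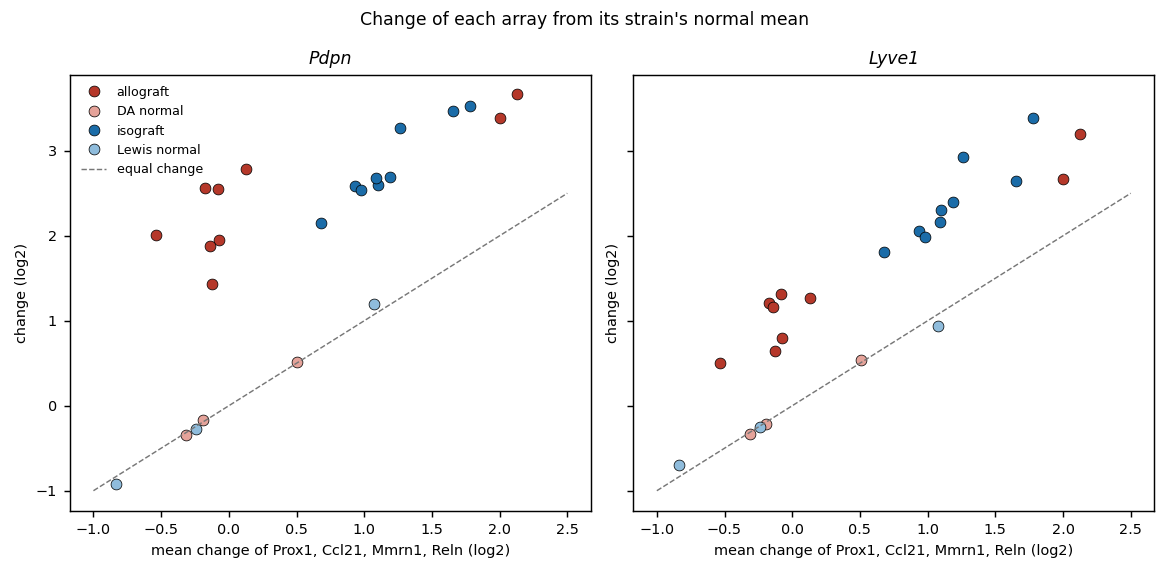
Change of Pdpn (left) and Lyve1 (right) from the normal mean of the strain (vertical axis, log2) against the mean change of Prox1, Ccl21, Mmrn1 and Reln on the same array (horizontal axis, log2). Each point is an array, and the dashed line marks equal change. All 18 graft arrays lie above the line in both panels, and the normal arrays lie along it.

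Leukocytes from allografts were set against the 9 allograft endothelial arrays as a level, with no test, since the leukocyte arrays may have been normalized apart. The median difference over all genes, 0.33, was taken off the leukocyte values for the differences below, while the signals are as deposited. Ccl21 was 6.79 in leukocytes on day 2, 6.42 and 6.30 on day 3 and 6.10 on day 4, against 9.68 to 12.89 in allograft endothelium. Mmrn1 was 5.07, then 4.76 and 4.77, then 4.38, against 7.70 to 11.07, and Reln was 6.21, then 6.14 and 6.11, then 5.71, against 7.79 to 10.73. These genes did not overlap between both cell preparations.

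Ccl21, Mmrn1, Reln, Prox1 and Flt4 were all lower in leukocytes. Their leukocyte signals, 4.38 to 6.79, lay under the leukocyte array medians of 6.83 to 6.88, in the dimmer part of each array, so no exact fold is given and the 5 genes are not ranked. In all, 5 of 7 members were at least 2-fold lower in leukocytes with no overlap, as were 8.64% of all genes. With the Prox1 probe set that is brightest in leukocytes, the difference of Prox1 was -0.32, short of that mark. Pdpn and Lyve1 differed from the other 5. Pdpn was 11.61, then 10.61 and 10.30, then 10.75 in leukocytes, against 8.69 to 10.92 in allograft endothelium, a difference of 0.76. Lyve1 was 12.07, then 11.52 and 11.03, then 9.59, against 9.42 to 12.11, a difference of 0.39. Both genes overlapped between the preparations, with the day 4 leukocyte array the lowest of the 4 for Lyve1. Fibroblast markers averaged 7.20 to 9.24 on the leukocyte arrays and 7.82 to 11.3 on the allograft endothelial arrays. The part of fibroblasts and other cells in the leukocyte signal of Pdpn and Lyve1 was not tested.

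**Figure D5:**
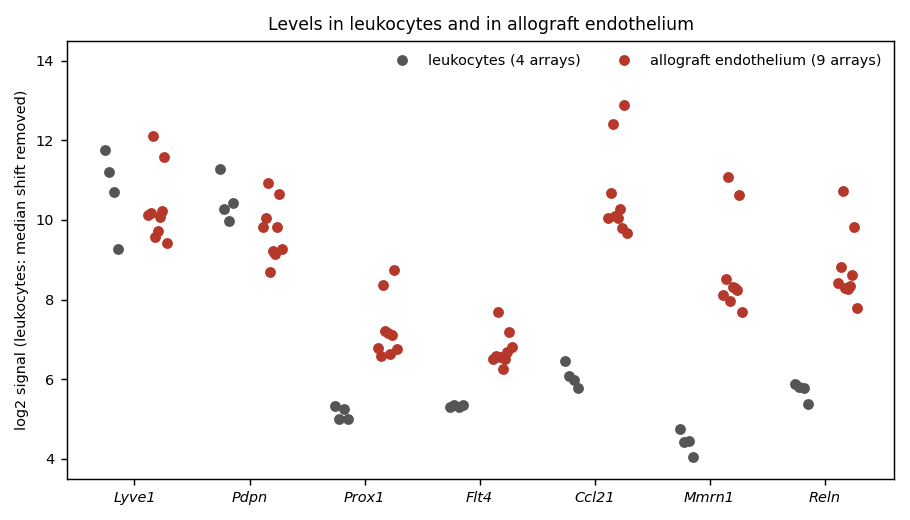
Log2 signal of the 7 genes in leukocytes (grey, 4 arrays, shifted by the median difference of 0.33) and in allograft endothelium (red, 9 arrays). Lyve1 and Pdpn overlap, and Prox1, Flt4, Ccl21, Mmrn1 and Reln lie lower in leukocytes on all arrays.

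The order of the groups was similar at its ends for Lyve1, Pdpn and Reln. Lyve1 was lowest in normal Lewis hearts (mean 8.20), then normal DA hearts (8.91), then day 3 allografts (9.79). Pdpn and Reln followed the same 3 steps, and each of these genes was highest in day 2 allografts. After the day 3 allografts came day 4 allografts for Lyve1 and Reln, but day 4 isografts for Pdpn. For Lyve1 and Pdpn the ranges of DA normal and day 3 allografts did not overlap, while every other pair of neighbours in the order did. For the other 5 members all neighbours in the order overlapped.

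Over the 24 endothelial arrays, each gene centred on its mean, the genes nearest to Lyve1 by root mean square difference were Reln (0.449), Tc2n (0.464) and Pdpn (0.475), beside a spread of Lyve1 itself of 1.08. The genes nearest to Pdpn were Lyve1 (0.475), the transcription factor gene Maf (0.525) and Dmbt1 (0.531), beside a spread of 1.31. The genes nearest to Reln were Tc2n (0.362), Ccl21 (0.413) and Prss23 (0.418), beside a spread of 0.81. The nearest of all genes to Ccl21 was Reln, with Mmrn1 second. For Mmrn1 the nearest was Ccl21, with Reln second and Prox1 after it.

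Other genes of the pathway were taken from lists. Of the 37 calls named below, 19 held when each array of the comparison was left out in turn and 18 did not, a check added after seeing the data.

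Most genes listed as governing lymphatic growth were not called in any given comparison, which does not show that they were unchanged. Of 15 measured of 20 listed, 3, 1 and 2 rose in allografts on days 2, 3 and 4 and 1 on each day in isografts. The share of all genes that rose was 3.53%, 1.55% and 7.19% in allografts and 1.06%, 1.8% and 2.61% in isografts. Falls numbered 0, 1 and 3 in allografts, where 2.45%, 0.724% and 4.26% of all genes fell, and 0 on each day in isografts, where 0.422%, 0.732% and 0.556% did. The list's median differences lay between -0.19 and 0.03. Angpt2, a ligand of the receptor TIE2 that is needed for lymphatic patterning, differed by 1.59, 1.18 and 1.77 in allografts and by 0.96, 1.47 and 0.97 in isografts, and rose in all 6 comparisons (limma adjusted p = 2.73e-06 to 0.0060), also without each array. Emilin1, a matrix protein of lymphatic anchoring filaments, rose in allografts on day 2 (0.94, adjusted p = 0.0286) and day 4 (0.95, adjusted p = 0.0166). Both calls were lost without the array that stood highest in the members, at 0.68 on day 2 (adjusted p = 0.161) and 0.69 on day 4 (adjusted p = 0.112), and also without DA replicate 2 or 3 or, on day 4, without replicate 3 (adjusted p = 0.0543 to 0.170).

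The growth factor of lymphatic vessels moved the other way in allografts. Vegfc, which activates VEGFR-3, fell there on days 3 and 4 (-1.05 and -1.06, limma adjusted p = 0.0357 and 0.0105) and was at -0.66 on day 2 (adjusted p = 0.157). The day 3 call was lost without any 1 of its 6 arrays (adjusted p = 0.0600 to 0.176), and that of day 4 without replicate 3 (-0.85, adjusted p = 0.0790). Nrp2, a co-receptor of VEGFR-3, fell on day 4 (-1.08, adjusted p = 0.0315), a call lost without any 1 array other than replicate 2 (adjusted p = 0.0598 to 0.117). In isografts Vegfc stood at -0.34, -0.24 and -0.32 and Nrp2 at -0.36, -0.35 and -0.38, none of which passed, and the difference between graft types was not called for either (adjusted p = 0.920 or more on each day). The remaining calls were Vegfd, a second VEGFR-3 ligand, higher on day 2 (0.79, adjusted p = 0.044), and Tek, which encodes TIE2, lower on day 4 (-0.55, adjusted p = 0.0445), both named after their values were seen. Without replicate 3 Tek stood at -0.31 (adjusted p = 0.324) and without replicate 1 at -0.83 (adjusted p = 0.000326). Vegfd lost its call without any 1 array other than replicate 1 (adjusted p = 0.0909 to 0.186). Its signals, 5.01, 5.53 and 5.75 on day 2 against 4.54, 4.65 and 4.73 in normal DA hearts, were dim. They lay under the endothelial array medians of 6.51 to 6.59.

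Other transcripts of lymphatic endothelium, 9 measured of 10, had 2, 1 and 4 that rose in allografts and 1, 2 and 2 in isografts, with 1 that fell in each. In allografts 3.53%, 1.55% and 7.19% of all genes rose and 2.45%, 0.724% and 4.26% fell. In isografts 1.06%, 1.8% and 2.61% of all genes rose and 0.422%, 0.732% and 0.556% fell. Fgl2, which is also strongly made by macrophages, differed by 3.23, 3.20 and 3.80 in allografts and by 1.99, 2.52 and 2.48 in isografts (limma adjusted p = 7.66e-08 to 0.000409). Maf rose in allografts on days 2 and 4 (2.06 and 2.42, adjusted p = 0.00538 and 0.000833) and in isografts on days 3 and 4 (1.90 and 2.39, adjusted p = 0.0189 and 0.00235). Its day 2 allograft call was lost without replicate 3 (1.60, adjusted p = 0.0505), and its day 3 isograft call without Lewis replicate 1 or 2 or its own replicate 2 or 3 (adjusted p = 0.0504 to 0.129). On day 4 in allografts the scavenging chemokine receptor Ackr2 (1.80, adjusted p = 0.000824) and the neuropeptide gene Nts (1.37, adjusted p = 0.0476) rose too. Nts rested on replicate 2, without which it differed by 0.47 (adjusted p = 0.179), while Ackr2 held without each array. The day 4 signals of Nts were 4.95, 7.72 and 5.06, against 4.47, 4.56 and 4.57 in normal DA hearts. All but the 7.72 lay under the endothelial array medians of 6.51 to 6.59. Sema3d, a guidance protein named after its values were seen, fell in all 6 comparisons, with differences of -1.37 to -1.12 (adjusted p = 0.00656 to 0.046), and each of these calls was lost without at least 1 array (adjusted p up to 0.321).

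Partners of the members, 12 measured of 16, had no call in isografts, where 1.06%, 1.8% and 2.61% of all genes rose. Falls there covered 0.422%, 0.732% and 0.556% of all genes. On the successive days of the allografts 0, 1 and 3 partners rose and 1, 0 and 1 fell. Of all genes 3.53%, 1.55% and 7.19% rose there and 2.45%, 0.724% and 4.26% fell. In allografts Ccl19, the other ligand of the receptor for CCL21, rose on day 3 (1.10, limma adjusted p = 0.00463) and day 4 (1.52, adjusted p = 7.3e-05), although Ccl21 itself had not passed on either day. Ezr, which encodes the cytoskeletal linker ezrin bound by podoplanin, rose on day 4 (1.63, adjusted p = 0.00696), as did the reelin receptor Lrp8 (0.66, adjusted p = 0.0184), named after its values were seen. Lrp8 rested on replicate 3, without which it differed by 0.40 (adjusted p = 0.146), and was lost without DA replicate 2 too (adjusted p = 0.101). Its signals were 5.80, 5.75 and 6.57 on day 4, against 5.49, 5.18 and 5.46 in normal DA hearts. These lay near or under the endothelial array medians of 6.51 to 6.59. Ccl19 and Ezr held without each array. Kdr, the VEGFR-2 gene of blood endothelium, fell on day 2 (-1.04, adjusted p = 0.000969) and day 4 (-0.60, adjusted p = 0.0297), and the day 4 call was lost without replicate 2 or any 1 of the DA arrays (adjusted p = 0.0590 to 0.134). Has2, a hyaluronan synthase, differed by up to 0.93 without passing.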

How the data were processed

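The authors deposited log2 signals per probe set, made with RMA in affy, per the submitters' processing notes (with no version stated). Array medians were 6.51 to 6.59 over 24 endothelial arrays and 6.83 to 6.88 over 4 leukocyte arrays, so the leukocyte arrays may have been normalized apart. Groups came from the labels. Of 31099 probe sets, 57 controls, 436 with several genes and 9780 not listed in the annotation used here were left out. Of 20826 with 1 gene, 20758 matched the RefSeq list and gave 14217 genes, with no filter on dim signals. The probe set with the highest endothelial mean stood for each of 4525 genes that had several. limma 3.58.1 in R 4.3.3 (lmFit, eBayes) used the endothelial arrays and a mean for each group (16 residual and 4.06 prior degrees of freedom), after a check on simulated data. P-values were adjusted over all genes.

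All members were named. Of other lists, up to 4 genes with the largest difference in a graft against normal comparison were named, and for each member called the 3 nearest genes. The members and lists were chosen with earlier results of these data known. Alternatives were all probe sets averaged, a filter on dim genes, an intensity trend in the prior, arrays centred on their medians, only the groups compared, array weights, a replicate block and each array left out. Replicate numbers of day 2 isografts and Lewis hearts deviated together (correlations 0.292 to 0.412 over genes in every pair). In the other comparisons not every pair passed 0.1. Precision is limited by the number of arrays.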

Additional observations from a re-analysis of the deposited data

How the results depend on the processing

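Counts of members called under other settings follow. Averaging all probe sets of a gene gave 1 member in day 2 allografts, 0 in day 3 allografts and 1 in day 2 isografts. Fitting only the groups compared gave 1 in day 2 allografts. Array weights, whose estimation stopped before converging, gave 7 in day 4 allografts, 4 in day 4 against day 2 allografts, 4 in day 3 isografts and 5 over all grafts. Leaving out the day 2 and day 4 allograft arrays that stood highest, chosen after seeing the data, gave 1 in day 2 allografts. Without single replicates the counts ran from 1 to 2 in allografts on days 2 and 4, were 0 there on day 3 in each case, and ran from 1 to 2 in isografts on days 2, 3 and 4. The filter on dim genes left out Prox1 and Flt4 and so tested 5 members. With an intensity trend or centred arrays no member changed its direction or its call. The replicate block gave 2 members in day 2 isografts and changed no count of calls. Some differences that had not passed changed sign. With array weights these were Flt4 in day 4 isografts (0.021), Prox1 (-0.052) and Mmrn1 (-0.37) in day 2 allografts, Prox1 (0.14) and Ccl21 (0.0021) in day 3 allografts and Mmrn1 in day 4 allografts (1.51). Without the 2 high arrays they were Prox1 (-0.35), Flt4 (-0.024) and Mmrn1 (-0.54) on day 2 and Prox1 (-0.10) and Ccl21 (-0.42) on day 4. Without single replicates the ranges were -0.14 to 0.045 for Flt4 in day 4 isografts. In day 2 allografts they were -0.35 to 0.54 for Prox1, -0.024 to 0.57 for Flt4 and -0.54 to 0.93 for Mmrn1. In day 3 allografts they were -0.19 to 0.16 for Prox1 and -0.18 to 0.27 for Ccl21. In day 4 allografts they were -0.10 to 0.89 for Prox1, -0.42 to 1.18 for Ccl21 and -0.89 to 0.57 for Mmrn1, and for Pdpn between graft types -0.96 to 0.094. The cause was not tested. Without the median shift, leukocytes stood at -1.79 for Prox1, -1.09 for Flt4, -4.26 for Ccl21, -4.01 for Mmrn1 and -2.74 for Reln. The other Prox1 probe set gave -0.32, and Flt4 ran from -1.44 to -1.39 without single leukocyte arrays. With 3 arrays a group and log2 standard errors of 0.22 to 0.72, differences of a doubling in most members could not be told from none.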
